A study of Mus musculus with 52 samples.

Results

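Polycystic kidney disease genes were examined in the transcriptomes of mouse kidney collecting duct cells carrying edits in cytoplasmic dynein-2 genes. The set held 5 genes, Pkd1, Pkd2, Pkhd1, Bicc1 and Ganab, chosen by name from the 24421 gene symbols counted in every library, and all 5 passed the filter on low counts in every comparison. The 52 RNA libraries came from 13 clones, counted once per state, each with 4 technical replicates. The cells were Cilia-APEX-IMCD3, an immortalized line of the inner medullary collecting duct. The study compared cells homozygous for missense alleles of Wdr34 or Wdr60, made by CRISPR base editing with BE4-Gam, with control cells, in a ciliated and in a non-ciliated state. WDR34 and WDR60 are intermediate chains of dynein-2, the motor that carries cargo from the ciliary tip back to the cell body.

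The ciliated arm had 3 mutant clones, labelled Wdr34 clone 1, Wdr34 clone 3 and Wdr60, against 4 controls named A4, D8, G7 and H12. In the non-ciliated arm the 2 mutants, Wdr34 and Wdr60, stood against 4 controls named AB, 1, 2 and 3. The study made p.Ala911Val in Wdr60 and, in Wdr34, p.Arg183Trp or p.Gly394Ser, the last of which it left out of the non-ciliated set. The labels do not say which ciliated Wdr34 clone carries which allele. The p.Gly394Ser clone also carries an unintended heterozygous missense change in Wdr34, and the Wdr60 clone an unintended heterozygous synonymous change in Wdr60. Every clone grew from a single sorted cell, and each edit was represented by at most 1 clone in a state. Control clones had received the base editor without a guide to either gene. Ciliated cells were starved of serum according to the methods, whereas the labels give full serum for all libraries. State, serum, sequencing occasion and clone cannot be told apart in a comparison of ciliated with non-ciliated cells. The count of 13 takes each clone once per state, whereas the methods name 4 control clones and 3 mutant clones. The labels do not link control names between the states, so some or all clones may stand in both. No fit paired clones across states, and comparisons over states treated them as separate.

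Polycystin-1, the product of Pkd1, is a large membrane receptor that pairs with polycystin-2, a cation channel encoded by Pkd2, in the primary cilium of tubule cells. Mutations in either gene cause autosomal dominant polycystic kidney disease, and mutations in Pkhd1, which encodes the ciliary membrane protein fibrocystin, cause the recessive form. Bicc1 encodes an RNA-binding protein whose loss gives cystic kidneys in mice, and Ganab encodes the catalytic subunit of glucosidase II, an enzyme of the endoplasmic reticulum that trims glycans on maturing polycystin-1 and other proteins.

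The genes lie on separate chromosomes of GRCm38. Pkd1 spans chr17:24549834-24596508 on the plus strand (GENCODE vM21), Pkd2 chr5:104459450-104505819 on the plus strand, Pkhd1 chr1:20057779-20618064 on the minus strand, Bicc1 chr10:70922832-71159700 on the minus strand and Ganab chr19:8898071-8916672 on the plus strand. The last 693 exon bases of Pkd1 are shared with Tsc2, which runs on the opposite strand. The strand setting of the counting is not given in the sources used here, so reads over those bases cannot be assigned to either gene with certainty. Pkhd1 shares 208 exon bases with the antisense gene 4930486I03Rik, and Bicc1 shares 349 with the antisense gene 4930533K18Rik.

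Sequence just before the annotated start is shown for 2 genes, Pkhd1, which had the widest range over ciliated control clones, and Ganab, which had the narrowest. The runs come from RefSeq promoter windows of GRCm38.p6, of which 4 of the 5 genes had one (Bicc1 did not). The runs of Pkd1 and Pkd2 lay inside the span that RefSeq gives those genes and are not shown, and the others stop before the first exon base in GENCODE and the gene's start in RefSeq. Capitals mark matches to GGGCGG, the GC box. The runs were read 5′ to 3′ from chr1:20618083-20618307 (minus strand) and chr19:8897807-8898056 (plus strand).
Pkhd1: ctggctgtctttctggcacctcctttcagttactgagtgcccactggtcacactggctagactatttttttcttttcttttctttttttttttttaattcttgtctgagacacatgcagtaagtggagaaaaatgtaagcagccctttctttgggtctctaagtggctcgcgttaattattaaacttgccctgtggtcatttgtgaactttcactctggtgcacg
Ganab: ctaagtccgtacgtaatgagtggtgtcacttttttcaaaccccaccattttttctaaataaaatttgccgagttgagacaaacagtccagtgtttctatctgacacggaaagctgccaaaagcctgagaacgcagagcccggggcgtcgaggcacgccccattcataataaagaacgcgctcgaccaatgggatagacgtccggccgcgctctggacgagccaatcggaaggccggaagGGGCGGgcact

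Both strands were searched for the GC box, for the TATA box (TATAAA) and for TGACGTCA (the cAMP response element, which reads the same on both strands). The Pkhd1 run of 225 bases held no GC box, which 29.2% of 32851 promoter windows held over the same bases, and its GC content was 41.3%. The Ganab run of 250 bases held 1 GC box, present in 32.7% of windows over those bases, at a GC content of 52.8%. Neither run held a TATA box, which 10.6% of windows held over 225 bases and 12.4% over 250, or the cAMP response element, which 1.2% and 1.55% held. These matches describe the letters alone.

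Library totals were 14816218 to 28084979 counts. A level of 1 CPM (the counts-per-million unit, scaled by TMM over all libraries) stood for 14.4 to 29.2 counts, and the 5 genes had between 440 and 21582 counts in a library. Library 1 of the non-ciliated control AB stood apart from the rest of its clone, with a median correlation of 0.9776 with the other 3 libraries (log2 scale, across genes), and its effect is given beside the results it moves. Median correlations within the clone were also low for the ciliated Wdr60 libraries, at 0.9788 to 0.988, for library 1 of non-ciliated Wdr60, at 0.9854, and for library 4 of G7, at 0.9867. Wdr34 was at 21.7 CPM in ciliated Wdr34 clone 3 and 46.2 in clone 1 against 30.9 to 44 in ciliated controls, and at 28 CPM in non-ciliated Wdr34 against 22.2 to 31.9. Wdr60 was at 20.5 CPM in the ciliated Wdr60 clone against 21.8 to 25.7 in controls and at 30.8 CPM in the non-ciliated one against 20.4 to 25.6, and over all mutants of a state it was called at -0.20 ± 0.06 (adjusted p 0.0471, edgeR) and 0.23 ± 0.08 (0.0394). The edits are missense changes that counts do not test. Of 15 collecting duct and tubular markers, 10 or 11 exceeded 1 CPM in every clone of an arm, with sums from 1190 CPM to 5160 CPM per clone, while Aqp2, the vasopressin-sensitive water channel that defines principal cells, had 0 counts in all libraries of 3 of the 4 arms and 1 count in a single library of the non-ciliated Wdr60 clone. Markers of endothelium summed to at most 0.186 CPM, of immune cells to at most 5.46 and of fibroblasts to at most 31.6, that last value in ciliated Wdr34 clone 3, which was highest of its state for 5 of 6 fibroblast markers, with Dcn, a matrix proteoglycan, at 29.2 CPM. The proximal tubule list, in which Slc34a1 and Slc22a6 were at 0, ranged from 16.9 to 450 CPM among ciliated controls and from 16 to 67.1 CPM among ciliated mutants. The markers did not move together in 2 control clones, the ciliated G7 and the non-ciliated control 2, in which 9 and 8 of the 15 collecting duct and tubular markers were at the lowest level of their state. Cdh1, which encodes the adhesion protein E-cadherin, was at 14.4 CPM in G7 and 301 to 649 in the other ciliated clones, and at 4.22 CPM in control 2 and 242 to 391 in the other non-ciliated clones. Epcam, an epithelial adhesion molecule, was at 13.5 and 2.86 CPM in these 2 clones and at 183 or more in all others, and Krt8, Krt18, Krt19 and Cldn7 were lowest there too. Cdh16, the kidney-specific cadherin, was in contrast highest in both, at 841 and 266 CPM, as were the kidney transcription factors Pax2 and Pax8. Ciliated Wdr34 clone 3 kept Cdh1 and Epcam at 301 and 287 CPM with Krt8 at 76.7. Markers called in mutants against controls were Cdh16 (-0.62 ± 0.06, adjusted p 1.56e-06, edgeR), Lrp2 (-4.00 ± 0.73, 0.000891) and the macrophage gene Cd68 (-0.67 ± 0.19, 0.0185) in non-ciliated cells. Without control 2 Lrp2 was at -2.82 ± 0.51 (0.000896). In ciliated cells Cd68 was called (-0.95 ± 0.26, 0.0382), and Pax2 and Pax8 are given with their list. The part of these markers in the results was not tested.

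Per kilobase of the longest coding transcript, Ganab was the most abundant of the 5 genes in ciliated controls, at 146 CPM per kilobase, followed by Bicc1 at 112, Pkd2 at 40.7, Pkhd1 at 7.98 and Pkd1 at 7.07 (means of 4 clones). Ganab and Bicc1 overlapped over clones (124 to 171 against 92.6 to 145 CPM per kilobase), as did Pkhd1 and Pkd1 (4.05 to 9.88 against 5.12 to 10.6), whereas Pkd2, at 35.9 to 50.6, lay apart from both pairs. The order was the same in non-ciliated controls, at 154, 80.1, 31.8, 5.62 and 5.01 CPM per kilobase. Transcripts of the large membrane proteins polycystin-1 and fibrocystin were thus the least abundant per length.

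**Figure D1:**
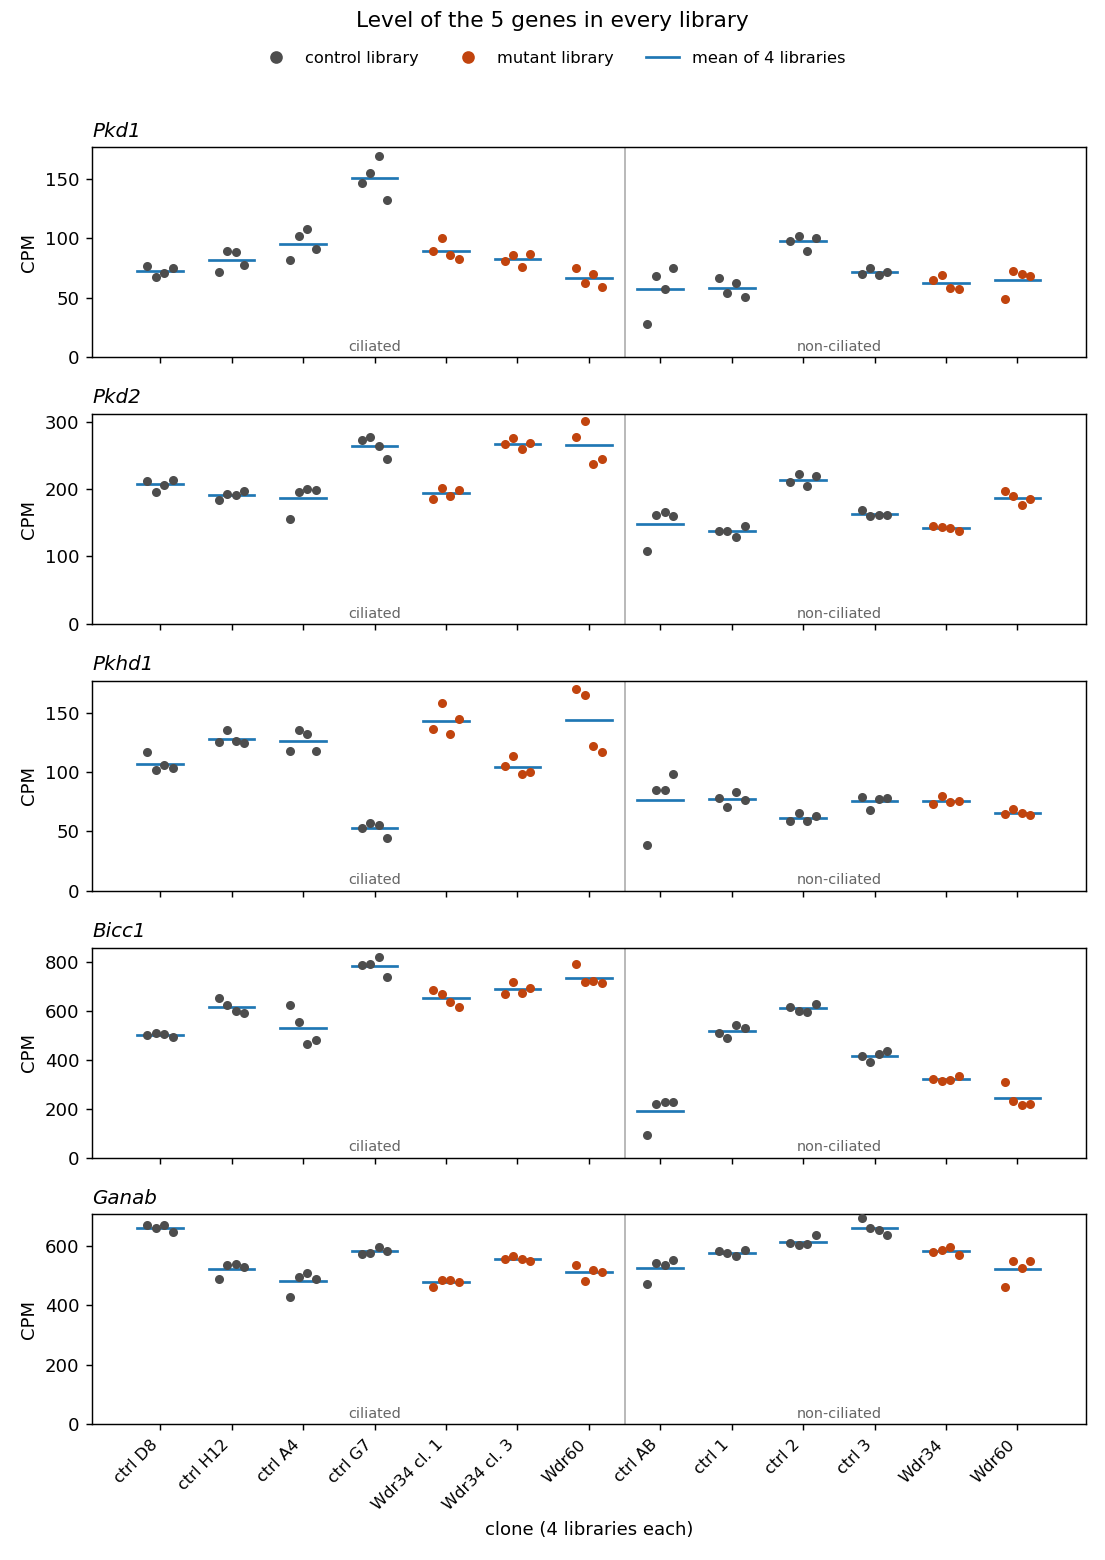
Level of each gene in CPM (y axis, from 0) in the 4 libraries (points) of each of 13 clones (x axis, ciliated left of the line, non-ciliated right), with blue lines for clone means, gray for controls and orange for mutants. The ciliated control G7 is highest for Pkd1 (151 CPM) and lowest among ciliated clones for Pkhd1 (52.4 CPM), and Bicc1 ranges from 191 to 611 CPM among non-ciliated controls.

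Pkd1 was at 100 ± 35 CPM in ciliated controls (SD over clone means, n = 4), 79.5 ± 11.6 in ciliated mutants (n = 3), 71 ± 18.7 in non-ciliated controls (n = 4) and 63.6 ± 1.85 in non-ciliated mutants (n = 2). Among ciliated clones the 4 libraries of G7 read 146, 155, 169 and 132 CPM. Every other ciliated library, mutant or control, lay between 59 and 108 CPM, so that G7 alone stood clear of its neighbours, and the ranges of all later neighbours in the order A4, Wdr34 clone 1, Wdr34 clone 3, H12, D8 and Wdr60 overlapped. In non-ciliated cells control 2 was highest, with libraries at 98.1, 102, 89.3 and 100 CPM, and again no other clone reached its range. The lowest library of all was library 1 of control AB at 27.9 CPM, beside 67.9, 57.5 and 74.8 CPM in the rest of that clone.

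Tsc2, the opposite-strand neighbour that encodes tuberin, was also highest in these 2 control clones, at 254 ± 15.6 CPM in G7 and 194 ± 1.85 CPM in control 2 (SD over 4 libraries). In the other ciliated clones it was at 148 to 209 CPM, and in the other non-ciliated clones at 131 to 155. Lrp2, which encodes megalin and made up most of the proximal tubule list there, was highest in the same clones, at 447 ± 106 CPM in G7 and 272 ± 10.4 in control 2. Cubn, which encodes the partner of megalin, was not, at 3.43 CPM in G7 and 13.2 in control 2, the latter the lowest of its state. These are the clones with the low Cdh1 and Epcam. The part of reads over the shared bases and of the marker differences in the Pkd1 values was not tested.

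Pkd2 was at 212 ± 35.6 CPM in ciliated controls, 242 ± 41.6 in ciliated mutants, 166 ± 33.7 in non-ciliated controls and 164 ± 31.6 in non-ciliated mutants (SD over clone means). In ciliated cells 3 clones formed an upper group whose ranges overlapped: Wdr34 clone 3 with libraries at 267, 275, 259 and 267 CPM, Wdr60 at 277, 301, 236 and 244, and control G7 at 272, 277, 264 and 244. The remaining ciliated clones, D8, Wdr34 clone 1, H12 and A4, lay between 156 and 213 CPM, with no overlap with the upper group. The upper group thus held mutants and a control. In non-ciliated cells control 2 (204 to 222 CPM) and Wdr60 (176 to 197 CPM) were each clear of the clones below them, which lay between 108 and 169 CPM.

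Pkhd1 was at 103 ± 35.2 CPM in ciliated controls, 130 ± 22.5 in ciliated mutants, 72.7 ± 7.45 in non-ciliated controls and 70.8 ± 7.11 in non-ciliated mutants. G7, the clone highest for Pkd1, was lowest for Pkhd1, with libraries at 52.7, 57.4, 55.5 and 44.2 CPM, and all other ciliated libraries lay between 98.7 and 170. The libraries of ciliated Wdr60 split into 170 and 165 CPM for the first 2 and 122 and 117 for the last 2. Wdr34 clone 1 had 136, 158, 132 and 144 CPM, and Wdr34 clone 3, at 105, 113, 98.7 and 99.7, overlapped control D8 and lay below H12 and A4. In non-ciliated cells library 1 of AB was at 38.3 CPM and the rest of that clone at 84.6, 85 and 98.1. All other libraries were between 58.4 and 83.5 CPM, so that the ranges of AB and control 1 overlapped only through library 1, and without it the controls were at 75.8 ± 11.3 CPM.

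Bicc1 was at 610 ± 128 CPM in ciliated controls, 694 ± 42.7 in ciliated mutants, 435 ± 180 in non-ciliated controls and 284 ± 54.8 in non-ciliated mutants. The non-ciliated controls did not form a common level. Control 2 had 618, 602, 597 and 627 CPM, control 1 had 509, 491, 545 and 531, control 3 had 417, 392, 426 and 436, and AB had 93.3, 217, 227 and 228. Without library 1 of AB the controls were at 443 ± 166 CPM. None of these ranges overlapped. Wdr34, at 320, 316, 318 and 336 CPM, fell in the gap between control 3 and AB, and Wdr60, at 312, 232, 214 and 221, overlapped AB, its highest value coming from library 1. In ciliated cells the clones ran from 503 CPM in D8 to 787 CPM in G7, the 3 mutant clones lay at 653, 691 and 738 CPM, and every neighbour in the order overlapped.

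Ganab differed little between groups, at 562 ± 78.5 CPM in ciliated controls, 515 ± 39.8 in ciliated mutants, 594 ± 56.5 in non-ciliated controls and 552 ± 43.2 in non-ciliated mutants. D8 was clear of all other ciliated clones with libraries at 669, 659, 671 and 648 CPM, and A4 and Wdr34 clone 1 were lowest at 480 and 477 CPM. In non-ciliated cells control 3 was highest at 659 ± 24 CPM and Wdr60 lowest at 522 ± 42. The highest clone exceeded the lowest by 1.38-fold among ciliated controls and 1.25-fold among non-ciliated controls, against 2.44-fold for Pkhd1 in ciliated and 3.19-fold for Bicc1 in non-ciliated controls (2.73-fold without library 1 of AB).

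The first comparison asked whether the dynein-2 edits changed these genes in ciliated cells, and none of the 5 passed the test. Of the polycystin transcripts Pkd1 had a log2 fold change of -0.34 ± 0.14 (SE) and Pkd2 of 0.18 ± 0.09 in mutants against controls. Pkhd1 had 0.33 ± 0.16, Bicc1 0.18 ± 0.09 and Ganab -0.13 ± 0.06. Adjusted p-values were 0.162 for Pkd1, 0.274 for Pkd2, 0.251 for Pkhd1, 0.273 for Bicc1 and 0.256 for Ganab (edgeR quasi-likelihood test, Benjamini-Hochberg over 11950 genes, of which 3.17% were called at an adjusted p under 0.05). Before adjustment Pkd1, Pkhd1 and Ganab, 3 of the 5, had p under 0.05, beside 19.2% of all genes, and DESeq2 called none of them and 5.79% of all genes.

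Because libraries of a clone are not independent, clone means were compared as well, by an exact 2-sided permutation test of 3 against 4 clones, whose smallest possible p is 0.0286. The exact test gave p = 0.4 for Pkd1, Pkd2 and Ganab, 0.429 for Pkhd1 and 0.314 for Bicc1, each 1 after adjustment, as for all 11950 genes. Clone means of mutants and controls overlapped for all 5 genes, and they did not overlap for 1.98% of all genes. The values moved with the clones included. Without G7 the log2 fold change of Pkd1 went to -0.07 ± 0.09 (adjusted p 0.59, edgeR) and that of Pkhd1 to 0.11 ± 0.09 (0.408), while Pkd2 at 0.31 ± 0.08 (0.0101) and Bicc1 at 0.33 ± 0.06 (0.00177) were called, beside 16.8% of all genes in that fit. Leaving out Wdr34 clone 1 also brought a call of Pkd2, at 0.32, and leaving out A4 a call of Ganab, at -0.21, beside 5.17% and 2.49% of all genes. Without D8 the values of Bicc1 and Ganab shrank to 0.09 ± 0.09 (adjusted p 0.706) and -0.05 ± 0.06 (0.771) and that of Pkd1 grew to -0.47 ± 0.13 (0.0675), and without Wdr34 clone 3 that of Pkd2 shrank to 0.10 ± 0.10 (0.598).

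In non-ciliated cells, where the same question was asked of 2 mutant clones, again none of the 5 genes passed the test, while 15% of 12012 genes did. Bicc1 had the largest difference of the 5, a log2 fold change of -0.62 ± 0.24 with an adjusted p of 0.083 (edgeR). Pkd1 was at -0.16 ± 0.16 (adjusted p 0.522), Pkd2 at -0.02 ± 0.11 (0.945), Pkhd1 at -0.04 ± 0.11 (0.848) and Ganab at -0.11 ± 0.06 (0.25). At an unadjusted p under 0.05 only Bicc1 passed among them, beside 30.3% of all genes, and DESeq2 called Bicc1 at an adjusted p of 0.0398, beside 18.8% of all genes.

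The value of Bicc1 moved in opposite directions with 2 controls, control 2, which had the highest level, and AB, whose level was below both mutants. Without control 2 it was at -0.41 ± 0.24 (adjusted p 0.249, edgeR). Without library 1 of AB Bicc1 was at -0.70 ± 0.19 (adjusted p 0.00877), and without the whole clone at -0.87 ± 0.11 (1.35e-05), where Ganab was called too, at -0.16 ± 0.05 (0.0252). These fits called 25.2% and 31.1% of all genes. With all clones, summing the libraries of each clone gave -0.62 ± 0.44 for Bicc1, in a fit that called 0 of 13406 genes (edgeR) and so bears on no single gene. The exact permutation test of 2 against 4 clones cannot go below 0.0667 and gave 0.533 for Bicc1, 0.467 for Ganab, 0.8 for Pkd1 and 1 for Pkd2 and Pkhd1. Clone means overlapped for all 5 genes and did not overlap for 12.9% of all genes.

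**Figure D2:**
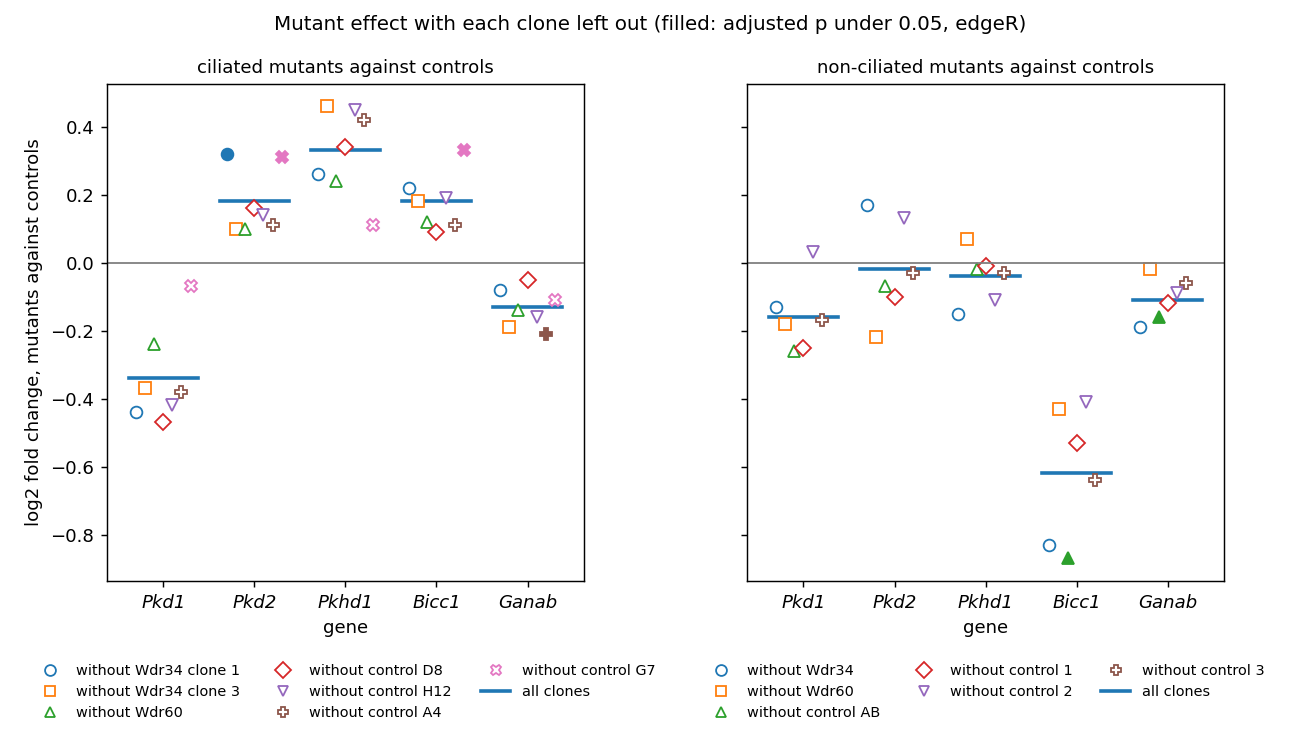
Log2 fold change of mutants against controls (y axis) for each gene (x axis) in ciliated (left) and non-ciliated cells (right), with all clones (blue line) and with each clone left out in turn (symbols, filled where the edgeR adjusted p is under 0.05). Without G7 the value of Pkd1 rises from -0.34 to -0.07 and that of Pkhd1 falls from 0.33 to 0.11, and without AB that of Bicc1 goes from -0.62 to -0.87.

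Single mutant clones were then set against the 4 controls of their state, and by edgeR with all libraries no gene of the 5 was called. Without library 1 of AB, edgeR called 2 of the 5 in non-ciliated Wdr60, beside 22.4% of all genes. DESeq2 with all libraries called 1 of the 5 in ciliated Wdr34 clone 3, beside 24.6%. In the edgeR fits with all libraries the share of all genes called was 2.2% for ciliated Wdr34 clone 1, 20.8% for ciliated Wdr34 clone 3, 6.34% for ciliated Wdr60, 11.5% for non-ciliated Wdr34 and 12% for non-ciliated Wdr60. The values nearest to the threshold were Pkd2 in ciliated Wdr34 clone 3, with a log2 fold change of 0.31 ± 0.12 (adjusted p 0.066), and Bicc1 in non-ciliated Wdr60, with -0.83 ± 0.34 (0.115). Ciliated Wdr60 had the lowest Pkd1 of its state, at -0.59 ± 0.23 (0.13). At an unadjusted p under 0.05 the count was 1 for ciliated Wdr34 clone 1 (Ganab), 1 for Wdr34 clone 3 (Pkd2), 2 for ciliated Wdr60 (Pkd1 and Pkd2), 0 for non-ciliated Wdr34 and 2 for non-ciliated Wdr60 (Bicc1 and Ganab), beside 16.4%, 33.3%, 21.9%, 28.9% and 28.5% of all genes in the same order. Without G7 ciliated Wdr34 clone 3 had 3 calls, Pkd2 at 0.45 ± 0.06, Bicc1 at 0.32 ± 0.09 and Pkhd1 at -0.21 ± 0.08, and ciliated Wdr60 had 2, Pkd2 at 0.44 ± 0.08 and Bicc1 at 0.42 ± 0.10, where 45.1% and 12% of all genes were called. Wdr34 clone 3 is also the clone with the high fibroblast marker Dcn and a low Krt8, whose part was not tested. Without AB Bicc1 was called in both non-ciliated mutant clones, at -0.67 ± 0.12 in Wdr34 and -1.08 ± 0.14 in Wdr60, and Ganab in Wdr60, at -0.24 ± 0.07, beside 26.4% and 29.4% of all genes. Without control 2 Bicc1 was at -0.21 ± 0.32 (adjusted p 0.682, edgeR) in Wdr34 and -0.62 ± 0.33 (0.2) in Wdr60, and Pkd2 was called in Wdr60 at 0.31 ± 0.10 (0.0328), beside 16.2% of all genes. Without A4 Ganab was called in Wdr34 clone 1, at -0.31 ± 0.08, beside 4.72%.

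Whether the mutant effect differed between the states was tested by the interaction over all 52 libraries, and none of the 5 genes passed, beside 1.89% of 12544 genes. Bicc1 came closest, its mutant effect being 0.80 ± 0.24 higher on the log2 scale in ciliated than in non-ciliated cells (adjusted p 0.0675, edgeR). DESeq2 called it at 0.0345, edgeR without library 1 of AB at 0.00812 and without both G7 and control 2 at 0.0464, in fits that called 3.09%, 2.72% and 5.87% of all genes. With clones summed its value was 0.81 ± 0.47, in a fit that called 0 of 13994 genes (edgeR) and so bears on no single gene. Values for the others were -0.17 ± 0.21 for Pkd1, 0.20 ± 0.14 for Pkd2, 0.37 ± 0.21 for Pkhd1 and -0.02 ± 0.09 for Ganab. Bicc1 alone had an unadjusted p under 0.05, as did 14.4% of all genes.

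Ciliated and non-ciliated control clones were compared to see how the genes differ with the ciliary state, and 4 of the 5 genes were called higher in ciliated controls at the level of libraries. Pkhd1 had a log2 fold change of 0.51 ± 0.14 (adjusted p 0.00294), Pkd1 of 0.50 ± 0.15 (0.00482), Bicc1 of 0.49 ± 0.18 (0.0158) and Pkd2 of 0.36 ± 0.09 (0.000942), by edgeR. Ganab was at -0.08 ± 0.06 (0.279) and was not called. These 4 calls stand beside a high background, since 60.9% of 11856 genes were called and 31.2% were called higher in ciliated controls.

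Clone means of the states overlapped for all 5 genes, although they did not overlap for 23.2% of all genes. In the exact permutation test of 4 against 4 clones, whose smallest p is 0.0286, Pkd2 had p = 0.114, Pkd1, Pkhd1 and Bicc1 each 0.171 and Ganab 0.543, with adjusted values from 0.262 to 0.694, where the lowest of any gene was 0.123. With clones summed, or with the clone as a block in voomLmFit, none of the 5 genes was called, at adjusted p-values from 0.218 to 0.677 and from 0.12 to 0.608, beside 13.4% and 26.2% of all genes. Without G7 the calls of Pkd1, at 0.24 ± 0.13 (adjusted p 0.119, edgeR), and Bicc1, at 0.35 ± 0.19 (0.108), were lost and Pkhd1 rose to 0.74 ± 0.09 (5.36e-08). Without library 1 of AB the same 4 genes were called, at 0.32 to 0.46. Without the whole of AB the value of Bicc1 went to 0.25 ± 0.10 (0.0359), and without D8 Ganab was called as well, at -0.16 (0.0137). Without both G7 and control 2 the same 4 genes were called, Pkhd1 at 0.65 ± 0.09, Bicc1 at 0.55 ± 0.19, Pkd1 at 0.41 ± 0.12 and Pkd2 at 0.37 ± 0.06, beside 65.6% of all genes.

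Wdr60 had 1 group of 4 libraries in each state, under titles of different form. The labels do not say whether both came from the same clone, and the study describes 1 Wdr60 mutant clone. In Wdr60 Bicc1 was higher in ciliated cells by 1.61 ± 0.13 on the log2 scale (adjusted p 9.16e-06), a 3.06-fold difference, Pkhd1 by 1.15 ± 0.14 (0.000119), a 2.21-fold difference, and Pkd2 by 0.53 ± 0.10 (0.00229), by edgeR. No library of Wdr60 overlapped between states for these 3 genes: Bicc1 libraries lay at 714 to 795 against 214 to 312 CPM, Pkhd1 at 117 to 170 against 63.7 to 69.2 CPM and Pkd2 at 236 to 301 against 176 to 197 CPM. Pkd1, at 0.06 ± 0.15 (0.762), and Ganab, at -0.01 ± 0.09 (0.96), were not called. Of 11915 genes 47.4% were called and 25.2% called higher in ciliated cells, and with 1 clone per state the test measures the spread of technical libraries alone.

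**Figure D3:**
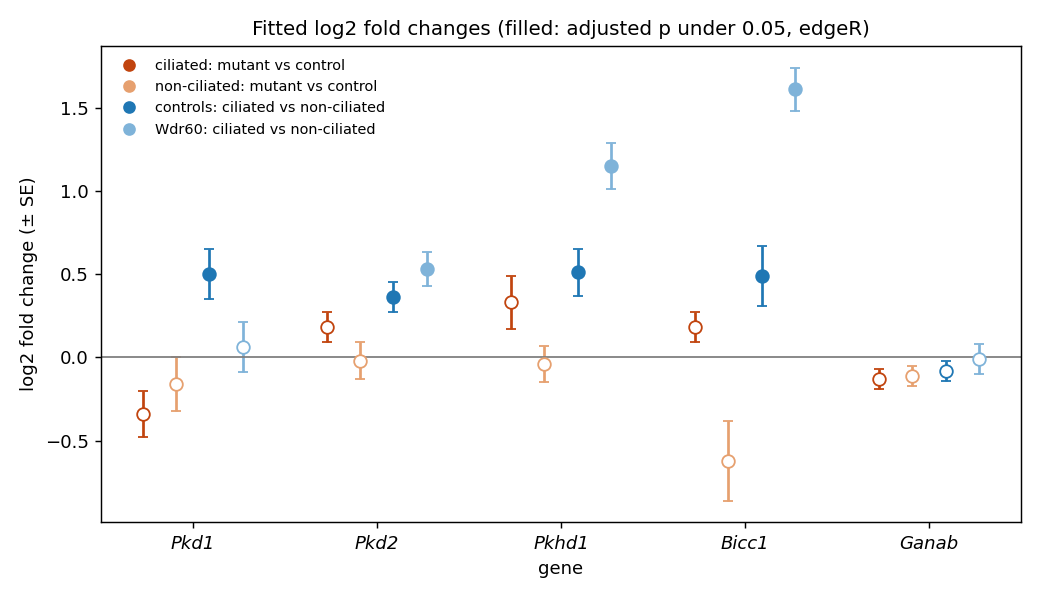
Fitted log2 fold change (y axis, bars show the SE) of each gene (x axis) for mutants against controls in ciliated and non-ciliated cells and for ciliated against non-ciliated cells in controls and in Wdr60, filled where the edgeR adjusted p is under 0.05. Filled symbols occur only in the comparisons of states, from 0.36 for Pkd2 in controls to 1.61 for Bicc1 in Wdr60, and Ganab lies near 0 throughout.

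Control clones, which carry no edit in either gene, differed among themselves. The test sets the clones against the spread of their technical libraries alone, and most genes were called. Among the 4 ciliated controls all 5 genes were called, with adjusted p-values from 2.57e-10 for Pkhd1 to 1.14e-05 for Pkd2 (edgeR, 3 degrees of freedom), as were 85.4% of 12325 genes. Among the 4 non-ciliated controls Pkd1, Pkd2, Bicc1 and Ganab were called and Pkhd1 was not (adjusted p 0.348; all 5 were called without replicate 1), against 80.5% of 12327 genes. On the log2(CPM + 1) scale the SD over ciliated control clones was 0.60 for Pkhd1 and 0.46 for Pkd1, higher than that of 90.4% and 82.1% of the 5219 genes with a mean of at least 50 CPM, whose median SD was 0.25. Bicc1, Pkd2 and Ganab had 0.29, 0.23 and 0.20. Among non-ciliated controls the SD of Bicc1 was 0.78, higher than that of 97.4% of 5178 genes, and Pkhd1, at 0.14, was lower than the median of 0.21. Without library 1 of AB these were 0.63, higher than that of 95.8% of 5191 genes, and 0.22, beside a median of 0.20.

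Clone means were centred on the mean of each state to compare patterns across all 13 clones. Pkd1 and Pkhd1 had a Pearson correlation of -0.75, which was -0.32 over the 12 clones without G7, and the other 9 pairs lay between -0.50 (Pkd2 with Pkhd1) and 0.49 (Pkd1 with Bicc1). These values describe 13 points, of which G7 is far from the rest, at 0.76 for Pkd1 and -1.05 for Pkhd1. The 3 genes most like each member in this pattern, out of 12946, were Glg1, Trim8 and Tnrc6b for Pkd1 (0.936 to 0.937), Ilvbl, Plin4 and Tmem55b for Pkd2 (0.908 to 0.951), Cx3cl1, Trim36 and Myo7a for Pkhd1 (0.945 to 0.974), Nedd4l, Arhgef17 and Ndst1 for Bicc1 (0.947 to 0.956) and Prr22, Stil and Gt(ROSA)26Sor for Ganab (0.865 to 0.906).

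Some of the clone differences were shared with the rest of the chromosome. In G7 the median of 696 other genes on chromosome 1 was -0.36 on the centred log2 scale, beside -1.05 for Pkhd1, and the median of the 19 genes within 5 Mb of it was -0.44. Non-ciliated control 2 had -0.42 for the chromosome and -0.21 for Pkhd1. No other clone went below -0.02 for that chromosome. In Wdr60 the median of 814 genes on chromosome 5 was 0.21 in both states, beside 0.25 for Pkd2 in ciliated and 0.20 in non-ciliated cells, and D8 and control 3 had medians of 0.18 and 0.20 for 450 genes on chromosome 19, beside 0.30 and 0.19 for Ganab. For Pkd2 itself G7 and control 2, at 0.25 and 0.39, stood beside chromosome medians of -0.16 and -0.11. Likewise the Pkd1 values of 0.76 in G7 and 0.54 in control 2 stood beside medians of 0.05 and 0.06 for 638 genes on chromosome 17, and Bicc1 at -0.96 in AB (-0.70 without its library 1) stood beside -0.01 for 588 genes on chromosome 10. The part of these shifts in the values of the genes was not tested.

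**Figure D4:**
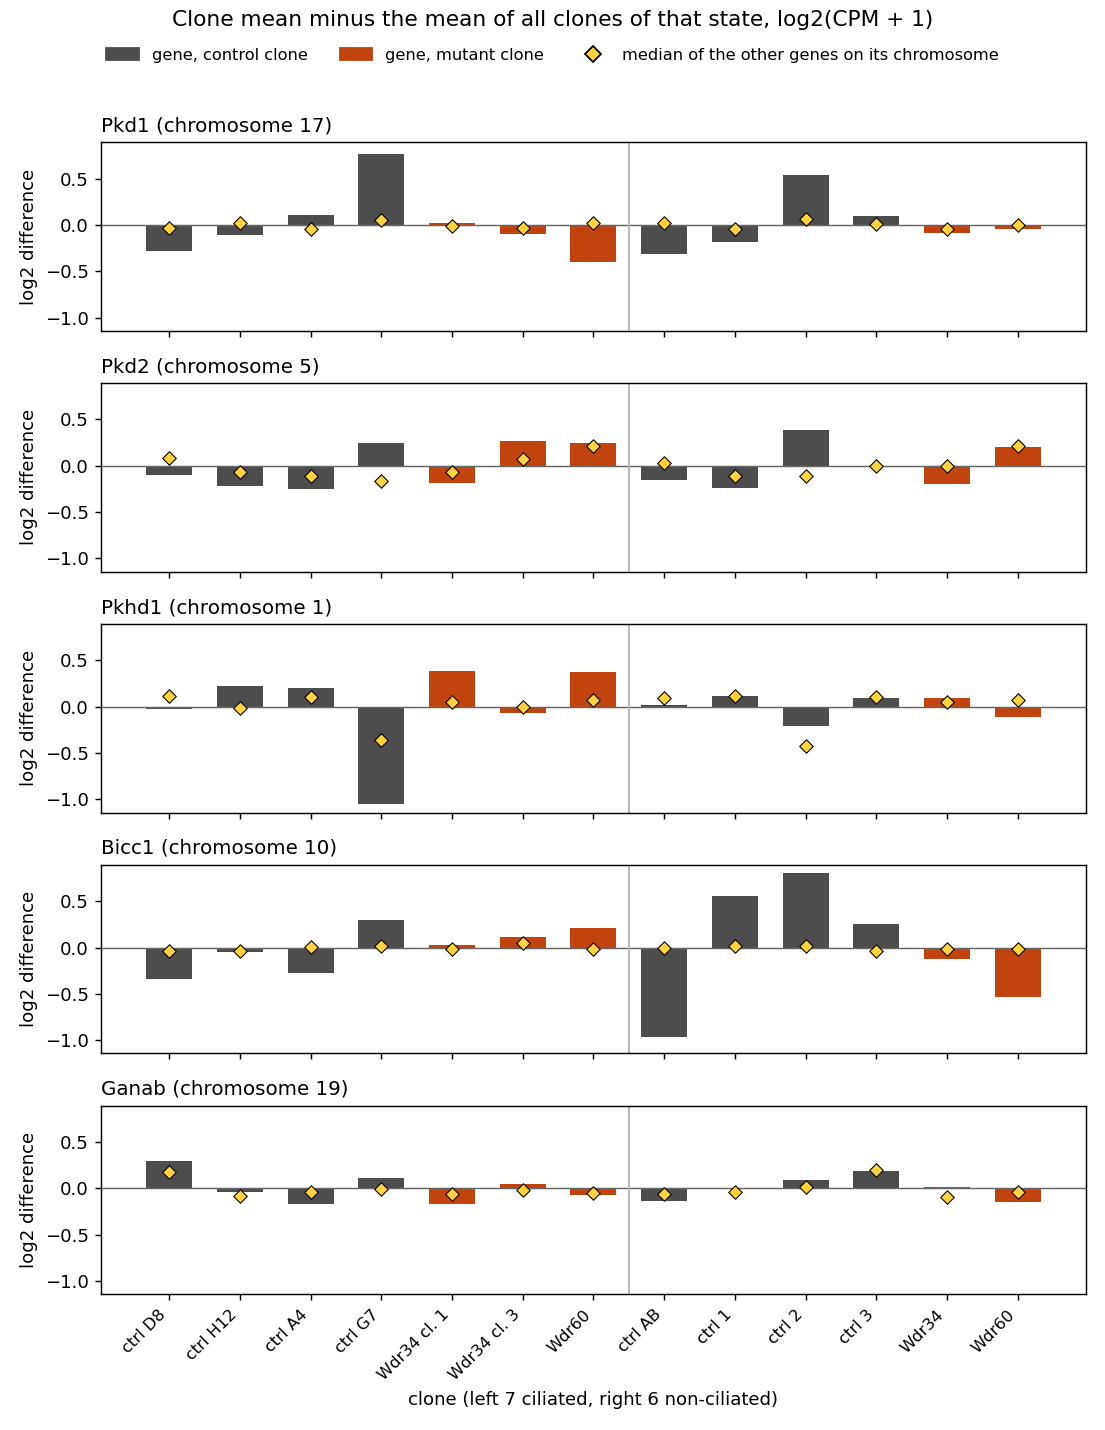
Clone mean of each gene minus the mean of all clones of its state on the log2(CPM + 1) scale (bars, gray for controls and orange for mutants) in the 13 clones (x axis), with the median of the other genes on its chromosome (diamonds). Pkhd1 in G7 is at -1.05 with its chromosome at -0.36, Ganab in D8 is at 0.30 with its chromosome at 0.18, and Pkd1 in G7 is at 0.76 with its chromosome at 0.05.

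Related genes of the same pathways were taken as lists and are given by their counts, beside shares over all genes of 1.58% called higher and 1.59% lower in ciliated mutants, 7.12% higher and 7.89% lower in non-ciliated mutants, and 31.2% higher and 29.7% lower in ciliated controls. Calls of list genes take the library as the sample. With the clone as a block (voomLmFit), 7 of 11950 genes were called in ciliated and 9 of 12012 in non-ciliated mutants, and with clones summed 0 in both. Of 12 genes of polycystin biogenesis in the endoplasmic reticulum and polycystic liver disease, none passed the test in ciliated mutants and 1 rose in non-ciliated mutants, Sec61b, a subunit of the protein translocation channel, at 0.52 ± 0.13 (adjusted p 0.00921, edgeR). Without the non-ciliated Wdr34 clone the call of Sec61b was lost, at 0.51 ± 0.17. Between control clones 8 of the 12 were lower in ciliated cells and 1, the Wnt coreceptor Lrp5, was higher, with a list median of -0.23 against 0.02 over all genes. Calr, which encodes the chaperone calreticulin, had -1.04 ± 0.08 and Prkcsh, the regulatory partner of the Ganab product in glucosidase II, -0.23 ± 0.05 (adjusted p 0.000368).

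Of 10 ciliary genes of recessive cystic disease and partners of Bicc1, none passed in ciliated mutants and 2 fell in non-ciliated mutants. These were Cys1, which encodes the ciliary protein cystin, at -2.58 ± 0.49 (adjusted p 0.00131, edgeR), and Ift140, a subunit of the retrograde transport complex, at -0.38 ± 0.12 (0.036). Control 2 had the highest Cys1 of its state, at 60.7 CPM against 9.62 to 13.1 in the other controls, and without it Cys1 was at -1.49 ± 0.16 (2.37e-06) and Ift140 at -0.24 ± 0.10 (0.114), no longer called. Ift140 was also not called without the Wdr34 clone, at -0.20 ± 0.15, and was at -0.58 ± 0.16 without the Wdr60 clone. Between control clones 6 were higher and 1 was lower in ciliated cells, with a list median of 0.23. Anks3 and Anks6, which encode binding partners of the Bicc1 protein, were at 0.29 ± 0.07 (0.00108) and 0.54 ± 0.14 (0.00131).

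Among 6 transcription factor and tuberous sclerosis genes, of which 5 were tested, Tsc1 fell in ciliated mutants (-0.28 ± 0.06, adjusted p 0.0131, edgeR). It was at -0.18 ± 0.05 (0.014) without G7, and without ciliated Wdr60 the call was lost, at -0.23 ± 0.07 (0.0596). The kidney transcription factors Pax2 (-0.68 ± 0.19, 0.017) and Pax8 (-0.47 ± 0.14, 0.025) fell in non-ciliated mutants, both being highest in control 2. Without that clone Pax2 was at -0.37 ± 0.11 (0.0275) and Pax8 at -0.33 ± 0.13 (0.0854). Both calls were lost without the non-ciliated Wdr60 clone, at -0.58 ± 0.27 and -0.30 ± 0.19. Between control clones 3 of the 5 were higher and 0 lower in ciliated cells. Among 11 genes of cAMP signalling, the second messenger that drives cyst growth, 7 were tested, none passed in ciliated mutants and Adcy6, an adenylyl cyclase, fell in non-ciliated mutants (-0.28 ± 0.07, 0.014; -0.20 ± 0.06, 0.0375 without control 2). Leaving out either mutant clone lost this call, at -0.31 ± 0.10 without Wdr34 and -0.24 ± 0.09 without Wdr60. Between control clones 4 of these 7 were higher and 1 was lower in ciliated cells. Of 7 relatives of the polycystins and fibrocystin, 6 were among the counted symbols and 2 were tested, of which none passed in either comparison of mutants and Pkd1l3 was higher in ciliated controls (0.91 ± 0.17, 3.26e-05).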

How the data were processed

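The authors used Rsubread under R v3.4.4 to align reads to GRCm38/mm10 and featureCounts to assign them to gene symbols. Each library was deposited as raw counts for 24421 symbols, without normalization. The handling of strand and of reads mapping to several genes is not given in the sources used here, and the authors used DESeq2 v1.18.1 for their own tests. Groups were taken from the labels. Replicate libraries of a clone were not identical in any of 78 pairs, and their chi-square divided by its degrees of freedom, 1.99 to 104, was above sampling noise.

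The software here was edgeR 4.0.16, DESeq2 1.42.0 and limma 3.58.1 under R 4.3.3. Genes kept by filterByExpr were scaled by TMM, tested by glmQLFit and glmQLFTest (2-sided) with the library as the sample and adjusted by Benjamini-Hochberg over all genes tested. A gene was called at an adjusted p under 0.05. SE is the size of the log2 fold change divided by the square root of F. The p-values reflect technical libraries of few clones, so clone means of log2 CPM (prior count 2) were compared by exact permutation. Tests of mutants against controls, of states, of the interaction and among ciliated controls were run on simulated counts. Required recovery was set only for edgeR without spread between clones. Single-clone comparisons, differences among non-ciliated controls, RLE size factors, the other filters and the replicate block were not simulated.

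All 5 genes were named in every comparison, with genes of the pathway lists called in either comparison of mutants and the 3 genes most alike in pattern. Outside that rule some markers and Tsc2 were named, as were Lrp5, Calr, Prkcsh, Anks3, Anks6 and Pkd1l3. Those last genes were called between control states and in neither comparison of mutants. Members, lists and comparisons were chosen with earlier results of these data known. Alternatives were DESeq2, RLE size factors, filters of 1 count in any or 10 counts in every library, clones summed, the clone or the replicate number as a block, a log2 fold limit of 1, and leaving out clones or replicate numbers. Leaving out library 1 of AB, or G7 and control 2 together, and the correlations without G7 were added after seeing the data. Of 24421 symbols 23204 (95%) matched RefSeq symbols of GRCm38.p6. One list gene is not reported here by name.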

Additional observations from a re-analysis of the deposited data

Results flagged for a closer look

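In 75 groups of 4 values (the libraries of a clone, or the control clones of a state, for each of the 5 genes), 6 held a highest or lowest value far from the others by Dixon's ratio, which chance alone gives for about 1 in 20 groups (3.75 of 75). Library 1 of the non-ciliated control AB was low for Pkd2, at 108 CPM with the next library at 160, and for Bicc1, at 93.3 CPM with the next at 217. Library 1 of the ciliated control A4 was low for Pkd2, at 156 CPM with the next at 195. Library 2 of the ciliated control H12 was high for Pkhd1, at 135 CPM with the next at 126. Library 1 of ciliated Wdr60 was high for Bicc1, at 795 CPM with the next at 725. Among non-ciliated control clones, control 2 was low for Pkhd1, with a mean of 61.5 CPM and the next clone at 75.5.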

How the results depend on the processing

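Over all settings, 521 fold changes kept their direction and call, 26 gained and 15 lost the call and 23 changed sign, and of the counts of called genes 121 kept within 1.5 times and 24 moved; the cause was not tested. DESeq2 raised the count of called genes from 0 to 1 for non-ciliated mutants, for the state difference in mutant effect and for ciliated Wdr34 clone 3, beside 18.8%, 3.09% and 24.6% of all genes. For ciliated against non-ciliated controls the count of 4 went to 0 with clones summed, with the clone as a block and with a log2 fold limit of 1. Pkhd1 in Wdr34 clone 3 went from -0.01 to 0 with DESeq2 and with clones summed. Without library 1 of AB, an alternative added after seeing the data, the count was 1 for non-ciliated mutants and for the difference between states, and 2 for non-ciliated Wdr60, and Ganab in that difference was at 0. Without both G7 and control 2, likewise added, the count for the difference between states was 1.

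Leaving out a clone or a replicate number gave counts of 0 to 2 for ciliated mutants, 0 to 2 for non-ciliated mutants, 2 to 5 for control states, 0 to 1 for the difference between states, 0 to 1 and 0 to 2 for non-ciliated Wdr34 and Wdr60, 0 to 1, 0 to 3 and 0 to 2 for ciliated Wdr34 clone 1, clone 3 and Wdr60, and 0 to 1 genes with p under 0.05 by exact permutation. With a clone left out, comparisons of mutants with controls have too few ways to divide the clones for a permutation p under 0.05. Signs changed for Pkd1 (-0.26 to 0.03), Pkd2 (-0.22 to 0.17) and Pkhd1 (-0.15 to 0.07) in non-ciliated mutants; for Pkd1 (-0.12 to 0.14) and Ganab (-0.08 to 0.04) between states of Wdr60; for Ganab in the difference between states (-0.06 to 0.01); for Pkd1 (-0.27 to 0.01), Pkhd1 (0 to 0.10) and Ganab (-0.07 to 0.02) in non-ciliated Wdr34; for Pkd1 in non-ciliated Wdr60 (-0.22 to 0.06) and Wdr34 clone 1 (-0.29 to 0.09); and for Pkhd1 (-0.21 to 0.13) and Ganab (-0.11 to 0.05) in Wdr34 clone 3.

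Same-numbered libraries correlated at -0.38 to 0.78 in ciliated cells (median 0.01; 26 of 84 pairs over 0.1) and at -0.47 to 0.27 in non-ciliated cells (median 0.02; 18 of 60 pairs), so that the numbers did not meet the rule that every pair exceed 0.1, and 12 of 28 and 1 of 24 libraries correlated best with their own number. Of the list genes called in mutants, the call was lost on leaving out 1 mutant clone for Sec61b (adjusted p 0.0554), Tsc1 (0.0596), Adcy6 (0.0584 and 0.0923), Ift140 (0.421), Pax2 (0.0633 and 0.155) and Pax8 (0.297), and on leaving out controls other than control 2 for Ift140 (0.096, control 3) and Pax8 (0.0727, control 1, and 0.0501, control 3). The calls of Wdr60 and Cd68 were lost without several single clones in either state, at adjusted p-values up to 0.15 (without D8) and 0.403 (without Wdr60) for Wdr60 and up to 0.233 (without D8) and 0.156 (without Wdr34) for Cd68, in ciliated and non-ciliated cells. With the replicate number as a block, 12 of 12 counts and 50 of 50 fold changes kept their call and direction (0 called in ciliated and in non-ciliated mutants, 4 between control states).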
